A study of Mus musculus with 14 samples.

Results

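Pancreas-containing spots were spots of the C1qa knockout spleen sections in which digestive enzyme transcripts made up a visible part of the RNA. A spot was counted when it lay under tissue, had at least 1000 detected genes and gave at least 1% of its unique molecular identifiers (UMIs) to the acinar genes Cpa1, Cela1, Cela2a, Prss2, Pnlip, Ctrb1, Cpb1 and Cel. Cpb1 was not analysed here, so that 7 of the 8 genes set the share. The rule found 64 of the 2662 passing spots of the 2 knockout spleens, 27 in knockout spleen 1 and 37 in knockout spleen 2. The spots were thus chosen by their share of UMIs from these genes, and the levels of acinar genes below are a description with no test.

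The study mapped sites of red cell formation in 14 mouse sections with 10x Genomics Visium, in which probes for each gene are captured on barcoded spots laid over a formalin-fixed, paraffin-embedded section. Heterozygous C1qa mice bought from Jackson were mated with each other, and their wild-type and C1qa knockout offspring gave 2 spleen sections each. These came from untreated mice at 3 months of age by the labels. The study's methods and figure legend give a younger age for spleens, and its reporting summary gives the labels' age for wild-type ones. The knockout is carried in every cell of the mouse, and C1qa, the macrophage gene for the first chain of complement C1q, is the only altered gene the labels name. A spleen from a purchased adult wild-type mouse was a further section. Each section was 1 library. The study counts its Visium spleens as biological replicates, and the labels name no animals. The p-values below rest on the spread between these sections as estimated with values shared across genes. They do not measure the spread of a single gene alone.

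The pancreas lies against the spleen in the mouse, and its tail runs in the fat and connective tissue of the splenic hilum. Most of the gland is made of acinar cells, which pack proteases, lipases, amylase and nucleases into zymogen granules and release them into ducts. Islets of endocrine cells, which make insulin, glucagon, somatostatin and pancreatic polypeptide, are scattered between the acini. Acinar enzyme genes are driven by the transcription factor complex PTF1, in which Ptf1a pairs with a common E protein and with Rbpjl, and which is known to bind an E-box together with a TTTCCC-type box.

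The promoters of 4 of the rule genes are shown because these genes define the spots, and because 2 of them hold both motifs of that bipartite site, 1 holds the TTTCCC box alone and 1 holds neither. Each run covers the 150 bases before the RefSeq start on GRCm38.p6, 5′ to 3′ on the strand of the gene. Capitals mark CANCTG and TTTCCC on either strand.
Cela1, a chymotrypsin-like elastase, chr15:100687921-100688070, minus strand: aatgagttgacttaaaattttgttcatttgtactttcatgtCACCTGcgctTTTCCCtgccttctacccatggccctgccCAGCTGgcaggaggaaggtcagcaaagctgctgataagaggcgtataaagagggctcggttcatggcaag
Cel, the bile salt-activated lipase, chr2:28563404-28563553, minus strand: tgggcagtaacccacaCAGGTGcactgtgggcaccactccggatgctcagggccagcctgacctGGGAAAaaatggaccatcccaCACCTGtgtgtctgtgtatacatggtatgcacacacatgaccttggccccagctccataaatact
Prss2, a trypsinogen, chr6:41521626-41521775, plus strand: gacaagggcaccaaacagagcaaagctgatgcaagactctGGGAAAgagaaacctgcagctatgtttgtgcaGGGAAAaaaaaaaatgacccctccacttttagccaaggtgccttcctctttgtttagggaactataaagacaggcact
Pnlip, the pancreatic triglyceride lipase, chr19:58670215-58670364, plus strand: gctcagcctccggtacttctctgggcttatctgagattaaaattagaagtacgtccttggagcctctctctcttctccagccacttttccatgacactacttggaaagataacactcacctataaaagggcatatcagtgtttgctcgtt

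Of the 8 rule genes, 3 (37.5%) held CANCTG in this window, 5 (62.5%) held TTTCCC and 2 (25%) held both. The same letters stood in 29.9%, 13.3% and 3.60% of all 27025 promoters of the table. Among the 31 promoters found for the 41 genes of the 3 lists of acinar enzymes and secreted proteins, which include the rule genes, 15 (48.4%) held CANCTG, 8 (25.8%) held TTTCCC and 4 (12.9%) held both. These matches describe letters and not binding.

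The 4 spleens of the cross held between 4604705 and 19939171 UMIs under tissue, and the deleted gene was nearly absent where the labels place the knockout. C1qa had 4343 UMIs in wild-type spleen 1 and 1135 in wild-type spleen 2, against 2 in knockout spleen 1 and 1 in knockout spleen 2. C1qa had no UMI in the pancreas-containing spots of either knockout. The macrophage partners C1qb and C1qc were at 96.1 and 274 counts per 1000000 UMIs (CPM) in the pancreas-containing spots of knockout spleen 1, near the 81.7 and 242 CPM of its other spots. In knockout spleen 2 they were at 15.7 and 22.0 CPM, against 125 and 277 CPM in its other spots. The knockout spleens share 1065 of 1341 and 1371 in-tissue spot barcodes, as slides of one design do, and 0 pancreas-containing barcodes were pancreas-containing or ordinary spots in the other section.

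The markers given for pancreas are genes of the rule, so that their levels describe the spots and do not check the name independently. Cpa1, which encodes carboxypeptidase A1, stood at 13976 CPM in the pancreas-containing spots of knockout spleen 1 and at 17.5 CPM in its other passing spots, and at 42579 against 43.6 CPM in knockout spleen 2. Cela1 stood at 10573 against 19.9 CPM and at 19645 against 25.6 CPM, and Pnlip at 4199 against 9.58 CPM and at 31310 against 27.2 CPM. Acinar genes that the rule did not use, such as the colipase and granule genes below, were likewise far higher inside the class in both sections.

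The 64 spots were not alike, and the 2 sections held different kinds. In knockout spleen 1 the 7 genes took 1.00 to 53.4% of a spot's UMIs with a median of 3.67%, and 18 of the 27 spots lay between 1 and 10%. In knockout spleen 2 they took 1.45 to 50.6% with a median of 47.6%, and 27 of the 37 spots lay at 10% or more. The class of knockout spleen 1 was thus mostly spots with a minor share of acinar RNA, and that of knockout spleen 2 mostly spots dominated by it. Next to the limit, the spots just inside held 1.00, 1.27 and 1.34% in knockout spleen 1 and 1.45, 2.31 and 2.80% in knockout spleen 2. The spots just outside held 0.965, 0.922 and 0.878% and 0.962, 0.881 and 0.859%. The other 2598 passing spots had a median share of 0 in knockout spleen 1 and 0.0201% in knockout spleen 2.

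The class held 145745 UMIs (1.38% of the passing UMIs) in knockout spleen 1 and 956735 (5.24%) in knockout spleen 2. A median pancreas-containing spot had 4019 UMIs and 1695 genes in knockout spleen 1, below the 7868 UMIs and 3900 genes of its other spots. The median spot of knockout spleen 2 had 28663 UMIs, above the 12058 of the other spots, yet only 2326 genes against 4975. The 10 most abundant genes took 41.5% of the class's UMIs in knockout spleen 1 and 66.6% in knockout spleen 2, so that few genes made up much of the class.

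The requirement of 1000 detected genes decided how much pancreas was counted. In knockout spleen 1, 50 in-tissue spots had fewer than 1000 genes, and each of them met the 1% limit, with 38.8 to 56.3% of UMIs from the 7 genes and a median of 6086 UMIs. No spot of knockout spleen 2 was lost in this way. In wild-type spleen 2, 236 spots past the limit had fewer than 1000 genes, with a median share of 45.9% and a median of 974.5 UMIs, and 19 spots with more genes met it with at most 5.81%. Counted over every in-tissue spot, the spots past the limit numbered 77, 37 and 255 in knockout spleen 1, knockout spleen 2 and wild-type spleen 2. Wild-type spleen 1 had none, with a highest share of 0.123%, and the purchased spleen had none, with a highest share of 0.151%.

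Acinar-rich spots carried few gene species at a common depth. Spots with 20% or more of UMIs from the 7 genes numbered 57 in knockout spleen 1, 25 in knockout spleen 2 and 175 in wild-type spleen 2, and they are called acinar-rich below, whatever their number of genes. Thinned to 1000 UMIs, they held a median of 172, 139 and 180 genes. Ordinary spots of the same sections held 792, 788 and 804 genes at that depth. For wild-type spleen 2 this leaves out 89 acinar-rich spots with fewer than 1000 UMIs. At equal depth the acinar-rich spots of the 3 sections lay near each other and held fewer genes than ordinary spots.

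**Figure D1:**
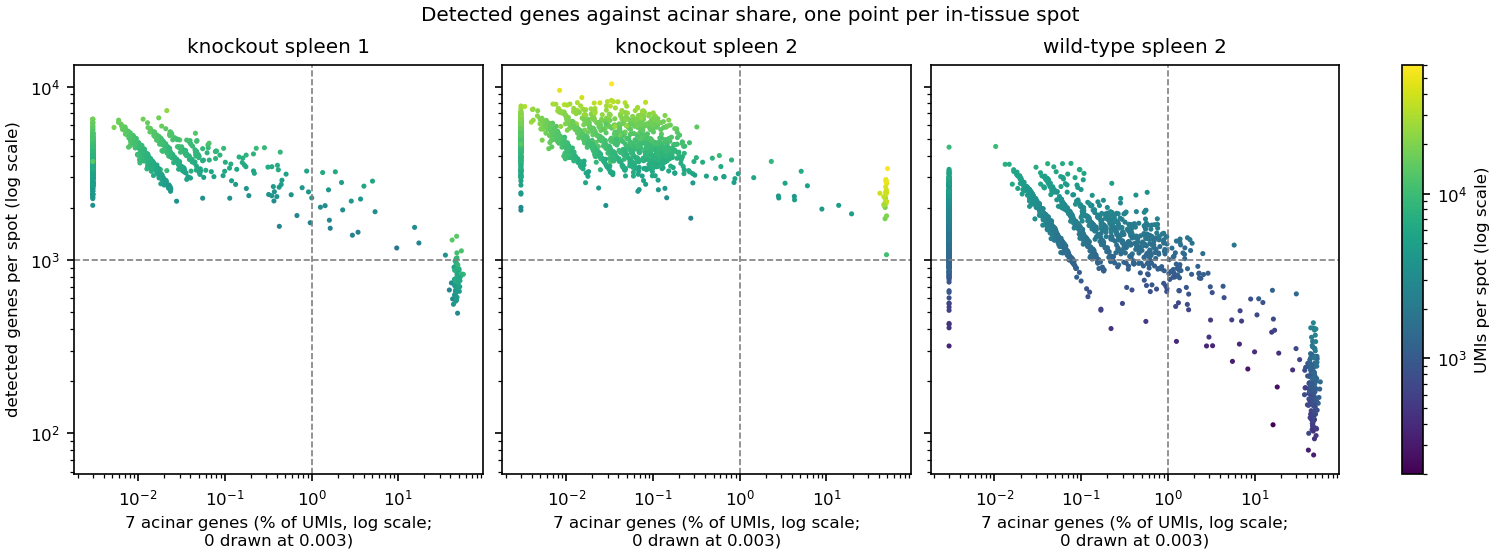
Detected genes per spot (vertical axis, log scale) against the share of UMIs from the 7 acinar genes (horizontal axis, percent, log scale) for every in-tissue spot of 3 spleens, coloured by UMIs per spot, with dashed lines at 1000 genes and 1%. The acinar-rich spots form a cloud at the right, which lies above 1000 genes in knockout spleen 2 and mostly below it in knockout spleen 1 and wild-type spleen 2.

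The spots formed compact patches at the border of the tissue. All 37 of knockout spleen 2 lay in 1 connected patch, and 28 of them (75.7%) touched the tissue edge, having fewer than 6 in-tissue neighbours. In knockout spleen 1, 26 of 27 lay together, 18 (66.7%) touched the edge, and all 77 in-tissue spots past the limit formed 1 patch. In wild-type spleen 2, 252 of 255 lay in 1 patch. Edge spots made up 12.0, 11.7 and 10.9% of all in-tissue spots of these sections. Each section thus had a single main piece at its border.

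**Figure D2:**
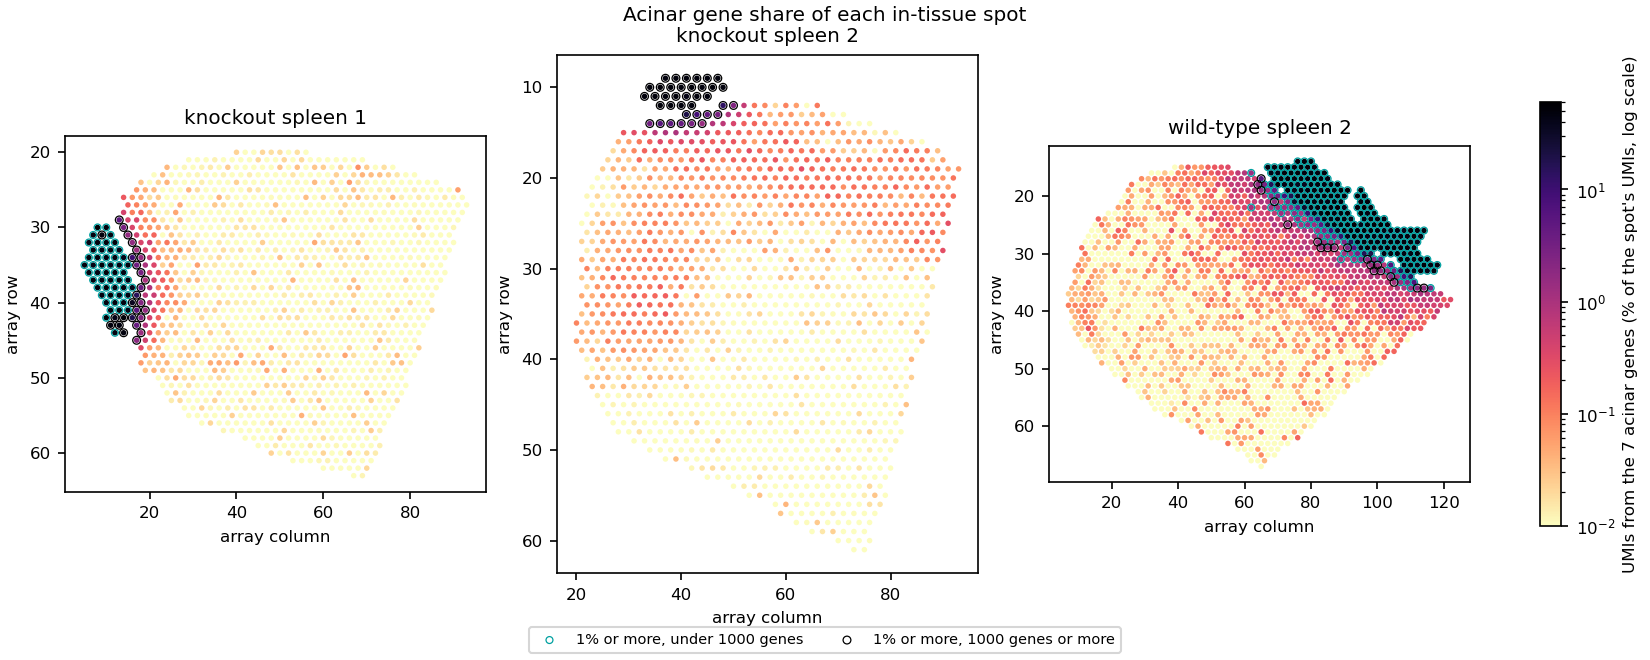
Array position of every in-tissue spot (array column and row) in 3 spleens, coloured by the percent of its UMIs from the 7 acinar genes on a log scale. Black rings mark spots of 1% or more with 1000 genes or more (27, 37 and 19), teal rings those with fewer genes (50, 0 and 236), and in each section they sit in 1 main patch at the border with a paler halo beside it.

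The acinar programme was described by 5 lists, which together took 41.8% of the class's UMIs in knockout spleen 1 and 74.4% in knockout spleen 2. The values are on the log2 scale, from the edgeR fit that pairs the 2 classes of each section, and positive where the pancreas-containing spots were higher. The median log2 fold change was 11.30 over the 7 rule genes, 10.22 over 14 enzymes outside the rule and 8.69 over 16 granule and other secreted proteins. It was 3.44 over 6 transcription factors and 1.76 over 6 receptors and channels, beside -0.32 over all 18081 genes tested. The enzymes and granule proteins stood furthest apart, and the regulators and receptors less so, with few UMIs.

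Among the proteases, chymotrypsinogen gene Ctrb1 was at 104134 against 41.5 CPM in knockout spleen 1 and at 154457 against 126 CPM in knockout spleen 2. Cela2a, a pancreatic elastase, was at 82487 against 52.4 CPM and at 141987 against 119 CPM. The trypsinogen gene Prss2 was at 4666 against 6.80 CPM and at 22035 against 16.2 CPM. These protease families hold close copies, and reads of near-identical members may have been shared between them.

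Among the lipases, Cel was at 22704 against 13.8 CPM in knockout spleen 1 and at 41798 against 35.2 CPM in knockout spleen 2. The colipase gene Clps, whose product anchors pancreatic lipase to fat, was at 5860 against 13.4 CPM and at 32993 against 35.0 CPM. Amy2a5, a pancreatic amylase, was lower in level, at 261 against 5.84 CPM and at 319 against 4.05 CPM. Each of these genes was higher inside the class in both sections.

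Granule and secreted proteins followed the enzymes. Zg16, a zymogen granule lectin, was at 21304 against 16.8 CPM and at 31906 against 31.0 CPM, and syncollin (Sycn), a granule membrane protein, was at 22121 against 20.2 CPM and at 24103 against 19.8 CPM. Gp2, the main zymogen granule membrane glycoprotein, was at 1667 against 7.09 CPM and at 4039 against 6.13 CPM. Rbpjl, the pancreas-restricted PTF1 subunit, had 7 and 116 UMIs in the pancreas-containing spots of the 2 sections and none in all 2598 other passing spots, which allows up to 0.287 and 0.173 CPM there, counting error only. Ptf1a, the other PTF1 subunit, was at 13.7 against 10.3 CPM and at 28.2 against 6.65 CPM, from 2 and 27 UMIs. Of these regulators, Rbpjl was detected in the class alone, and Ptf1a had a level in ordinary spots close to that in the class of knockout spleen 1.

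The acinar-rich spots of the sections shared their bulk and differed in a few genes. The 5 acinar lists took 79.5, 79.0 and 77.6% of UMIs in knockout spleen 1, knockout spleen 2 and wild-type spleen 2. Of 34 acinar genes with at least 100 UMIs, 23 were within 2-fold between the knockout sections, 10 were higher by more in knockout spleen 2 and 1 was lower. Between knockout spleen 1 and wild-type spleen 2, 32 of the 34 were within 2-fold, and between knockout spleen 2 and wild-type spleen 2, 22. The spots of a section are not replicates and each section is 1 library, so these differences between sections have no test.

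Knockout spleen 2 stood apart in lipase, ribonuclease and a trypsinogen. Pnlip ranged from 2157 to 14157 CPM with a median of 7086 in the 57 acinar-rich spots of knockout spleen 1, and from 16540 to 60055 with a median of 31884 in the 25 of knockout spleen 2. In wild-type spleen 2 it ranged from 0 to 16160 CPM with a median of 3923. The spots of the 2 knockouts did not overlap. All spots of knockout spleen 2 lay above all of knockout spleen 1 for 3 of the 34 acinar genes, and below for 1. This count was not made over all genes. Rnase1, the pancreatic ribonuclease, ranged from 3284 to 13399 CPM (median 7179) in knockout spleen 1 and from 15860 to 39044 (median 25546) in knockout spleen 2, again without overlap. The trypsinogen Try4 ranged from 0 to 1011 CPM (median 197) in knockout spleen 1 and from 2303 to 9524 (median 4517) in knockout spleen 2, a ratio of the section sums of 19.6. Clps had medians of 12576 and 32344 CPM and its ranges overlapped.

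Reg3b went the other way. Reg3b encodes a secreted C-type lectin of the Reg family, which the acinar cell makes in inflammation and injury. It ranged from 329 to 2244 CPM with a median of 1078 in the acinar-rich spots of knockout spleen 1, and from 0 to 160 CPM with a median of 71.5 in knockout spleen 2. In wild-type spleen 2 it had 2 UMIs in 175 spots, against 381 UMIs in knockout spleen 1 and 69 in knockout spleen 2. Every spot of knockout spleen 1 was above every spot of knockout spleen 2, and the ratio of knockout spleen 1 to wild-type spleen 2 rests on the 2 UMIs of the latter. The relatives Reg2 and Reg3a had 66 and 37 UMIs in knockout spleen 1, 1 and 4 in knockout spleen 2 and 0 and 1 in wild-type spleen 2. Reg1, the abundant lithostathine gene, had medians of 26793, 21273 and 18996 CPM, and its ranges overlapped in all 3 sections.

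The bulk proteases did not separate the sections. Ctrb1 had medians of 170438, 165778 and 222727 CPM in knockout spleen 1, knockout spleen 2 and wild-type spleen 2, Cela2a of 192168, 143617 and 162822 CPM, and Cela1 of 19551, 20339 and 15837 CPM. Cpa1 had medians of 24682, 43928 and 20036 CPM, and its ranges overlapped. For these genes the section with the higher median differed from gene to gene.

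**Figure D3:**
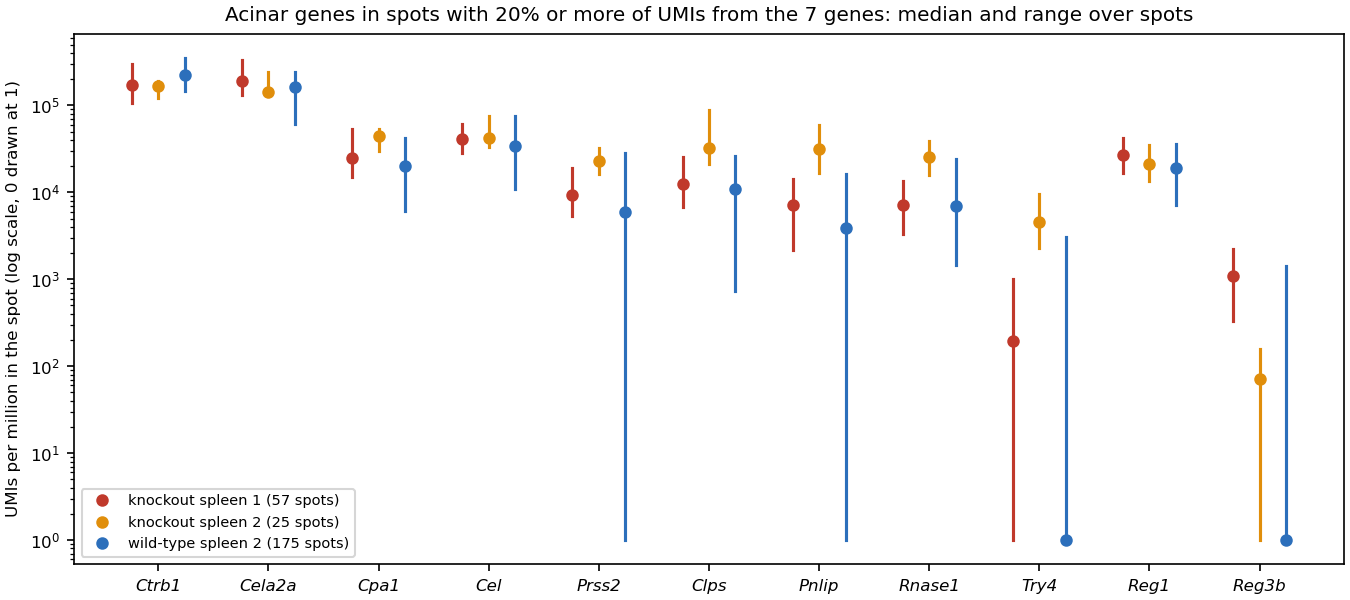
CPM of 11 acinar genes (vertical axis, log scale, 0 drawn at 1) in the acinar-rich spots of knockout spleen 1 (57), knockout spleen 2 (25) and wild-type spleen 2 (175). Points are medians over spots and lines run from the lowest to the highest spot, and knockout spleen 2 stands above knockout spleen 1 without overlap for Pnlip, Rnase1 and Try4 and below it for Reg3b.

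Genes were tested between the 2 classes with an edgeR quasi-likelihood fit on summed counts, with the section as block and Benjamini-Hochberg adjustment over 18081 genes. The acinar-list genes are among these 18081 and are given as description only. In this fit 317 genes (1.75%) were higher and 508 (2.81%) lower in the pancreas-containing spots. With the acinar lists left out, 279 (1.55%) of 18033 genes were higher and 510 (2.83%) lower. The fold changes depend on the scaling, and the trimmed mean of M values (TMM) factor of the class was 1.23 in knockout spleen 1 and 0.315 in knockout spleen 2, against 1.67 and 1.54 for the other spots. Without these factors the median of all genes moved from -0.32 to -1.85, and 12 genes were called higher (0.0664%) and 0 lower. The medians of the ER, duct and islet hormone lists below were then at -0.67, -0.07 and -1.001, and no gene of these lists was called. Values in CPM are unscaled, and log2 fold changes are scaled.

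Among genes outside every list that passed the test, the 10 with the largest fold changes are given without p, since they were picked for the size of the difference and some passed the filter on low counts mainly through the class itself. Cbs, cystathionine beta-synthase of the transsulphuration pathway, was at 82.3 against 0.192 CPM in knockout spleen 1 and at 182 against 0.289 CPM in knockout spleen 2 (log2 fold change 10.81 ± 0.84 SE, 2 sections). Gnmt, glycine N-methyltransferase, was at 54.9 against 0.958 CPM and at 139 against 1.33 CPM (7.97 on the log2 scale). Asns, asparagine synthetase, was at 343 against 9.48 CPM and at 261 against 7.28 CPM (6.57). The ER to Golgi cargo protein gene Tmed6 was at 178 against 7.47 CPM and at 414 against 5.20 CPM (6.92).

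Mt1, a metallothionein, was at 885 against 32.2 CPM and at 1371 against 31.6 CPM (6.50), and the stress-induced nuclear protein gene Nupr1 was at 638 against 30.4 CPM and at 1093 against 30.3 CPM (6.18). The amino acid transporter gene Slc38a5 was at 48.0 against 4.41 CPM and at 133 against 5.09 CPM (5.76). Arhgdig, Hamp2 and Cabp2 had log2 fold changes of 6.57, 6.38 and 5.94. Being higher in both sections was a condition of the choice, and each of the 10 was so at unscaled CPM too. 2210010C04Rik, in no list and singled out after its values were seen, had medians of 45455, 81008 and 45375 CPM in the acinar-rich spots of knockout spleen 1, knockout spleen 2 and wild-type spleen 2, and it was not among the called genes. Of the 10 called genes with the largest falls, each had 0 UMIs in the class, and their levels were at least 3.38- to 6.93-fold lower than in other spots, counted against a floor of 3 UMIs of the 329500 UMIs of the class outside the acinar lists. They were Herc3, Ipo8, Trbj2-2, St8sia6, Adam8, Pitpnc1, Slf2, Gm614, Myef2 and Kif3c.

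Genes of the secretory machinery rose in part. Of 14 tested genes of endoplasmic reticulum folding and export, 2 rose and 0 fell, beside 1.75 and 2.81% of all genes, with a median log2 fold change of 0.77 beside -0.32. Sel1l, a subunit of the ubiquitin ligase of ER-associated degradation, was at 68.6 against 42.1 CPM and at 138 against 41.2 CPM (log2 fold change 2.81), and Creld2, an ER chaperone, was at 165 against 93.0 CPM and at 125 against 85.9 CPM (2.11). The chaperone Hspa5 was at 913 against 1114 CPM and at 656 against 918 CPM (0.99 ± 0.75 SE, adjusted p = 0.67 in the edgeR quasi-likelihood fit). With every in-tissue spot and wild-type spleen 2 added, an alternative chosen after seeing the data, 8 of 14 rose and 1 fell, beside 4.81% of all genes higher and 12.8% lower.

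Duct genes were tested on 15 members, of which 4 rose and 0 fell, beside 1.75 and 2.81% of all genes, with a median log2 fold change of 1.58. The tight junction gene Cldn3 was at 48.0 against 3.64 CPM in knockout spleen 1 and at 27.2 against 2.31 CPM in knockout spleen 2, from 7 and 26 UMIs (5.14 ± 0.64 SE, edgeR quasi-likelihood adjusted p = 5.0e-13). The epithelial keratin gene Krt8 was at 34.3 against 5.75 CPM and at 20.9 against 4.62 CPM (3.90, adjusted p = 8.6e-07 in the edgeR fit), and Spp1, osteopontin, had 3 and 10 UMIs (3.75). Cldn7, another claudin, had 0 and 20 UMIs, so that its call (3.18) rests on knockout spleen 2. Cldn3, Cldn7 and Krt8 are made by epithelia in general and not by ducts alone. Of the duct genes proper, Krt19 had 0 and 8 UMIs (adjusted p = 0.11 in the edgeR fit), Sox9 1 and 5, and Cftr none in either class sum.

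Islet hormone genes gave few UMIs. Of the 8 genes, 0 passed the test in either direction, with a median log2 fold change of 0.44. The 8 genes together gave 9 UMIs (61.8 CPM) in the class of knockout spleen 1 and 8 UMIs (8.36 CPM) in that of knockout spleen 2, against 41.2 and 29.2 CPM in the other spots and 62.8 CPM in wild-type spleen 1, which had no pancreas-containing spot. In the acinar-rich spots of knockout spleen 2 there was none among 893956 UMIs, which allows up to 3.36 CPM, counting error only. In those of knockout spleen 1 there were 20, or 55.7 CPM against 41.2 in ordinary spots. Of the UMIs outside the acinar lists they made 272 CPM, also against 41.2. Of the 20, 13 were insulin UMIs (36.2 CPM, against 12.3 CPM in ordinary spots). In wild-type spleen 2 there were 2, with no insulin UMI. In spots with a share of 1 to 10% the hormones gave 8 UMIs in each section (114 and 150 CPM). Over all UMIs the acinar-rich spots of knockout spleen 2 were thus below the level of its ordinary spots. Those of knockout spleen 1 were little above the level of its ordinary spots over all UMIs, and below the 62.8 CPM of wild-type spleen 1. Each value is from 1 section. Hormone UMIs also occurred in the spleens without pancreas-containing spots, at 1.18 CPM in the purchased one, which was processed apart.

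Of the other islet genes, 1 of 16 secretory and metabolic genes rose, beside 1.75% of all genes. It was Ttr, transthyretin, which alpha cells make and which liver makes too, at 6.86 against 4.79 CPM from 1 UMI in knockout spleen 1 and at 29.3 against 4.05 CPM from 28 UMIs in knockout spleen 2 (log2 fold change 4.06, edgeR quasi-likelihood adjusted p = 1.3e-06). None of 11 islet transcription factors rose or fell, with a median of -1.29. The counts of these genes were too low to show a small number of islet cells.

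Connective tissue around the gland gave few calls, read beside the 1.75% of all genes that were higher. Clec3b, tetranectin, rose among 12 fibroblast genes, from 5 and 14 UMIs (log2 fold change 2.82), and the fatty acid carrier Fabp4 rose among 10 adipocyte genes, from 3 and 12 UMIs (2.68, edgeR quasi-likelihood adjusted p = 0.019). The adipocyte hormone gene Adipoq had 0 and 1 UMIs and the mesothelial Msln 0 and 2. No gene of the smooth muscle, mesothelium, nerve, vascular or lymphatic lists passed the test, nor any of the stomach, intestine, kidney, salivary, adrenal and liver lists.

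Spleen cells were still present in the class, unevenly between the sections. Of 9 T cell genes 6 fell (Cd8a, Cd4, Cd3g, Cd3d, Cd3e and Trac) and 0 rose, beside 2.81 and 1.75% of all genes, with a median log2 fold change of -3.08. The T cell receptor constant gene Trac was at 61.8 against 309 CPM in knockout spleen 1 and at 3.14 against 397 CPM in knockout spleen 2. In the list of 8 B cell genes Cr2 and Ms4a1 fell too, beside 2.81% of all genes. Ms4a1, which encodes CD20, was at 219.6 against 883 CPM and at 30.3 against 808 CPM. In knockout spleen 2, whose class was mostly acinar-rich, lymphocyte genes were lower still than in knockout spleen 1. Fewer cells of a type and less RNA per cell cannot be told apart in spots, which hold several cells.

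Plasma cell genes split, with 3 of 10 lower and 2 higher beside the same shares of all genes. The immunoglobulin genes Jchain and Igha and the chaperone Mzb1 fell, while Derl3 and Xbp1 rose (2.50 and 1.71), and these last belong to the secretory stress pathway that acinar cells share with plasma cells. In the list of 11 erythroid genes Slc4a1 and Alas2 rose, and among 8 neutrophil genes the granule gene Camp rose. No gene of the red-pulp macrophage, marginal-zone macrophage, megakaryocyte or splenic stroma lists passed the test. At unscaled CPM Slc4a1 and Alas2 were higher in the class of knockout spleen 1 only. Alas2, the rate-limiting enzyme of haem synthesis in red cells, was at 1262 against 160 CPM there and at 134 against 371 CPM in knockout spleen 2, so that its direction in the latter turns on the scaling. Spots with 1 to 10% acinar share held most red cell RNA, with the erythroid list at 135999 and 135639 CPM in the 2 sections.

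Pancreas transcripts reached beyond the patch and faded with array distance, where 1 step joins a spot to its 6 first neighbours. Distances were taken from spots with 10% or more, whatever their number of genes, to passing spots of the knockouts and all in-tissue spots of wild-type spleen 2. The 7 genes took 47.0% of UMIs in such spots of knockout spleen 1, then 3.61% at 1 step, 1.64% at 2, 0.320% at 3, 0.130% at 4 and 0.0587% at 5. In knockout spleen 2 the shares were 47.8, 3.39, 1.78, 0.282, 0.177 and 0.115%. The fall from source to the first step was 13.0- and 14.1-fold, and its size turned on the limit that defines a source, being 23.8- and 21.7-fold from spots of 5% and 6.06- and 3.35-fold from spots of 20%. The share fell at every step to 5 in both knockouts.

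Farther out the sections parted. At 11 to 20 steps the share was 0.00802% in knockout spleen 1, 1.44 times the 0.00556% of wild-type spleen 1, which had no pancreas-containing spot. The share was 0.0559% there in knockout spleen 2, 10.1 times that level, over 361 spots. Beyond 40 steps the 2 sections were at 0.00627 and 0.00691%, 1.13 and 1.24 times wild-type spleen 1. In wild-type spleen 2 the share was 46.0% at the source, 2.85% at 1 step, 0.478% at 5, 0.0574% at 11 to 20 and 0.0248% in the 16 spots beyond 40 steps. At 21 to 40 steps it was 0.00654, 0.0220 and 0.0214% in knockout spleen 1, knockout spleen 2 and wild-type spleen 2. Against wild-type spleen 1 the share was thus still raised at 21 to 40 steps in the latter pair, and in wild-type spleen 2 at every distance measured, while in knockout spleen 1 it neared that level by 11 steps. The purchased spleen, processed apart, had the 7 genes at 7.98 CPM against 55.6 CPM in wild-type spleen 1. The slopes rest on 6 to 24 spots per step up to 5 steps in the knockouts, and the spots of a section are not replicates.

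The mix of acinar genes differed with distance in all 3 sections. Ctrb1 took 22.0% of the UMIs of the acinar lists in the acinar-rich spots of knockout spleen 1, 22.6% at 2 to 5 steps, 6.93% at 6 to 20 steps and 4.62% beyond. The same shares were 20.7, 21.8, 17.4 and 13.4% in knockout spleen 2 and 29.4, 19.2, 15.9 and 11.7% in wild-type spleen 2. Far from the patch the lists also hold UMIs of genes nearly absent from it, which lower every other share. Beyond 20 steps in knockout spleen 1 Gata6, Ptf1a and Chrm1 took 3.35, 3.08 and 2.80%, where each took at most 0.00210% in the acinar-rich spots. These shares describe single sections and have no test.

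**Figure D4:**
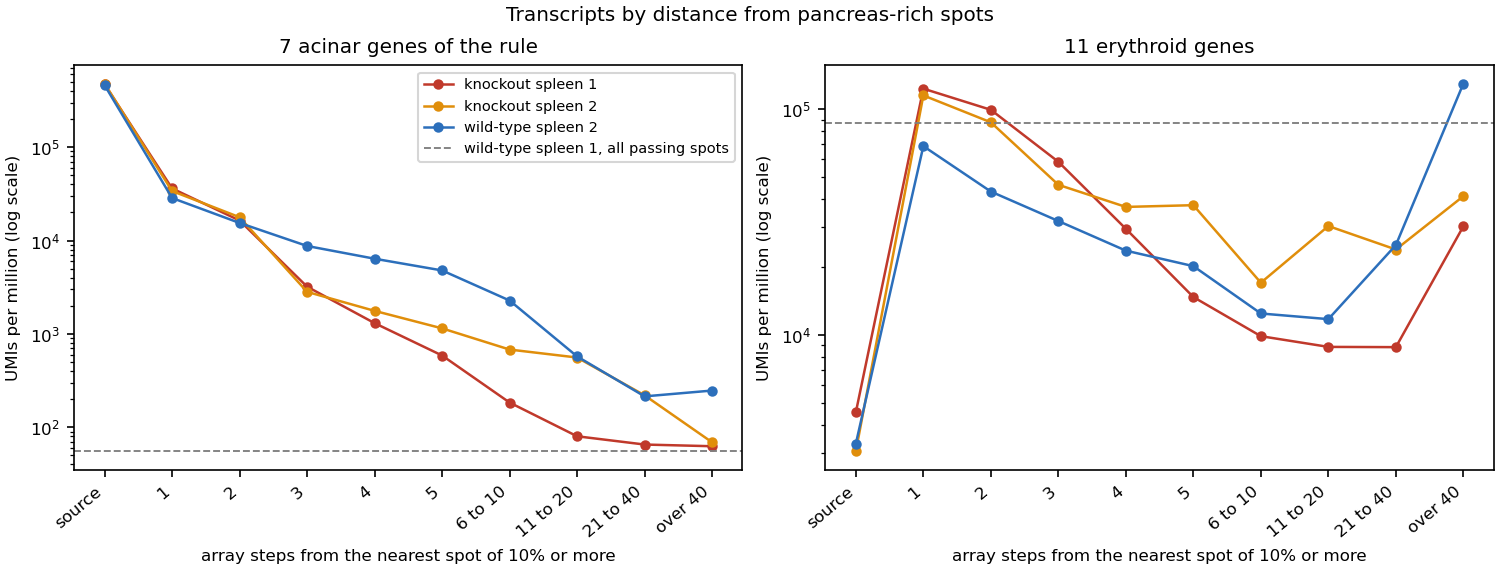
CPM (log scale) of the 7 acinar genes (left) and of 11 erythroid genes (right) by array steps from the nearest spot with 10% or more, in 2 knockout spleens and wild-type spleen 2, with wild-type spleen 1 as a dashed line. The acinar genes fall from 47.0, 47.8 and 46.0% of UMIs at the source to a level close to the dashed line beyond 40 steps in the knockouts. As CPM of all UMIs, the erythroid genes are lowest at the source and highest within the first 10 steps at 1 step. Of UMIs outside the acinar lists, the erythroid list held 14733, 8490 and 8325 CPM in acinar-rich spots, in the order above. It held 10141, 26530 and 22266 CPM in the other passing spots.

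Spleen next to the patch was compared with distant spleen. Spots outside the class at 1 to 2 steps from it (40 in knockout spleen 1 and 27 in knockout spleen 2) were set against those at 6 steps or more (1146 and 1247). Of 18117 genes tested in the edgeR quasi-likelihood fit with the section as block, 72 (0.397%) were higher and 549 (3.03%) lower near the patch. The 72 include all 7 rule genes, with a median log2 fold change of 4.13. These genes set which spots count as near, so their rise is described and not tested. No islet or duct gene passed the test, and of 14 ER genes 4 fell (Pdia4, Dnajc3, Creld2 and Ssr4).

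Some red cell genes rose beside the pancreas and some T and plasma cell genes fell. Of 11 erythroid genes, 6 rose, beside 0.397% of all genes (Hbb-bt, Hbb-bs, Hba-a2, Slc4a1, Rhag and Alas2). The beta-globin gene Hbb-bs was at 16415 against 3427 CPM in knockout spleen 1 and at 18293 against 10631 CPM in knockout spleen 2 (1.34 ± 0.16 SE, edgeR quasi-likelihood adjusted p = 1.3e-14). The rise was larger in knockout spleen 1, and the SE draws on the spread of other genes as well. Of 9 T cell genes 4 fell, beside 3.03% of all genes, with Trac at 144 against 314 CPM and at 270 against 400 CPM (-1.001), and of 10 plasma cell genes 3 fell, with Jchain, the immunoglobulin joining chain, at 396 against 1343 CPM and at 285 against 1282 CPM (-2.13). The globin and T cell differences changed with the choice of distant spots.

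Against distant spots of the outer 2 layers of the section, a choice made after seeing the data, 0.619% of genes were higher and 0.55% lower. Of the near spots, 19 of 40 and 15 of 27 lay in these layers, so the 2 sides were not matched for distance from the edge. None of 10 erythroid genes passed the test then, with a median of -0.25. Hbb-bs was then at -0.18 and Trac at 0.18 on the log2 scale, on the other side of 0, while Jchain still fell (-1.34). The 7 rule genes, as description, had a median of 4.39. The erythroid list took 4.83 and 12.0% of UMIs in distant edge spots of the 2 knockouts and 0.351 and 1.27% in distant spots 3 or more steps inside. In passing edge spots 1 to 2 steps from a spot of 10% or more, which include pancreas-containing ones, it took 15.8 and 14.6%, from 13 and 9 spots. Passing spots inside the edge at the same 1 to 2 steps held 4.92 and 5.01%, from 12 and 10 spots. Distant spots held 1.788 and 4.855% at 1 step inside, and 0.590 and 1.83% at 2 steps inside. Averaged over distant spots, red cell RNA was thus higher at the edge than inside in both sections. At the edge it was higher again near the patch, by more in knockout spleen 1. The part of the patch in these differences was not tested.

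The knockout and wild-type spleens were summed to see what the pancreas-containing spots add to a comparison of genotypes. Over 18895 genes, 2603 (13.8%) were higher and 1283 (6.79%) lower in the knockouts. Among the 48 tested acinar-list genes 31 were called higher, and 9 of the 10 largest fold changes of the whole table, 18 of the top 20 and 24 of the top 30 were acinar genes. The sections were known to differ in these genes, so no p is given for them. Cpa1 was at 210 and 2273 CPM in the knockout spleens and at 10.5 and 53.7 CPM in the wild-type ones, each in the order of the labels, and Pnlip at 67.2 and 1667 against 10.1 and 21.1 CPM. Ctrb1 was at 1474 and 8214 against 6.12 and 289 CPM. Every knockout value lay above every wild-type value for these 3 genes in passing spots. Over every in-tissue spot the 7 rule genes together took 1.611 and 2.415% of UMIs in the knockouts. They took 0.005557 and 2.076% in the wild-type spleens, so wild-type spleen 2 then lay above knockout spleen 1. Without knockout spleen 2 the calls were 151 higher genes over the table and 14 among the acinar lists.

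Leaving out the 64 spots shows how much of this they carried, and, since they were chosen by the same genes, a fall is fixed by the choice. Without them 0 of the acinar-list genes were called higher, beside 13.4% of all genes, and Cela1, with 4.11 on the log2 scale before, was at -0.55. Counting every in-tissue spot restores the pancreas of wild-type spleen 2, while wild-type spleen 1 has no pancreas-containing spot at all. In these sums 9 acinar genes were called higher, beside 13% of all genes. They included Pnlip (3.44), Try4 (4.84) and Reg3b (5.84), the genes that also set knockout sections apart above. Of the 14 genes of ER folding and export, 12 were called higher in the knockouts with and without the pancreas-containing spots, beside 13.8 and 13.4% of all genes. The plasma cell list was at 44220 and 41557 CPM in the other passing spots of the knockouts, against 17725 and 27622 CPM in those of the wild-type spleens. Its part in the ER genes was not tested.

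**Figure D5:**
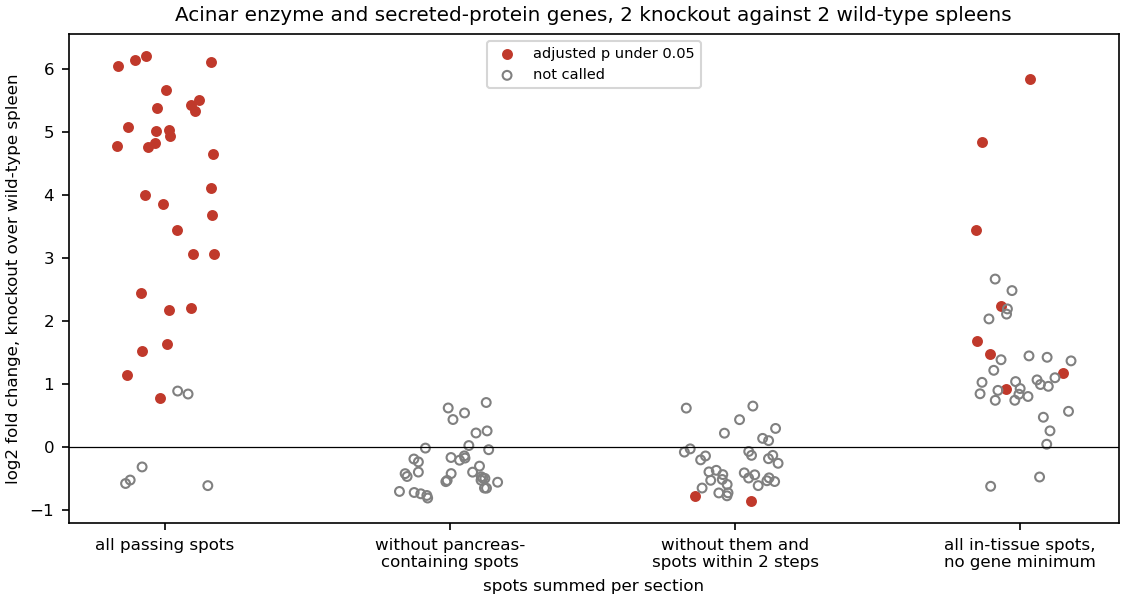
Log2 fold change of knockout over wild-type spleen (2 sections each) for the genes of the 3 lists of acinar enzymes and secreted proteins, with one point per gene, filled where the adjusted p was under 0.05. From left to right all passing spots were summed, then all but the 64 pancreas-containing spots, then all but these and spots within 2 steps, then every in-tissue spot. Filled points above 0 are many for all passing spots, absent once the 64 spots are left out, and few for every in-tissue spot.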

How the data were processed

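Gene expression was measured with probe-based 10x Genomics Visium on formalin-fixed, paraffin-embedded sections. The authors deposited raw UMI counts per gene and spot from Space Ranger (4.0.1 in the headers of the 4 spleens of the cross; mm10 in the submitters' processing notes), without normalization. The deposited barcode, feature and position tables hold other values: spot and gene names, the in-tissue mark and array row and column.

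Spots under tissue were kept from 1000 detected genes upwards, the minimum of the study's methods. Counts were summed per section and class, so that sections and not spots were the replicates. Sums were tested with edgeR 4.0.16 (R 4.3.3, limma 3.58.1; TMM, filterByExpr, quasi-likelihood F test, Benjamini-Hochberg over all tested genes, threshold 0.05), with the section as block where classes of one section were compared and none between genotypes. With 2 sections the class fits leave 1 residual degree of freedom, so their SEs and p-values lean on dispersion estimates shared across genes. DESeq2 1.42.0, other factors, filters, limits and left-out sections were alternatives. Distances, patches and shares were computed in Python 3.11.15. The fits were tested on simulated data.

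The members and gene lists were chosen with earlier results of these data known. From each list the 4 genes with most counts in the class were eligible for naming, with all islet hormones and the rule genes. Outside the lists the eligible genes were the 10 largest changes in each direction, with the same direction in both sections and at least 100 counts. Genes called within a list are named besides, chosen after their values were seen. Cpb1, Prss1, Try5, Pnliprp1, Pdia6, Ero1b, Krt18, Ccl21a, Hba-a1, Ccl19, Bpifa2 and Hsd3b1 were not analysed here, and some results for single genes of the lists are not reported here. Levels are counts per 1000000 UMIs (CPM), compared within a gene, since probes differ. Intervals and floors of 3 counts cover counting error only.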

Additional observations from a re-analysis of the deposited data

Results flagged for a closer look

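Acinar transcripts also passed the 1% limit in spots that the comparisons between classes do not use. In wild-type spleen 2, 236 in-tissue spots under 1000 detected genes and 19 spots with more genes met it, while wild-type spleen 1 had none. In knockout spleen 1, 50 in-tissue spots under 1000 genes met it. In the fetal livers, 7 passing spots of wild-type fetal liver 2 and 1 of knockout fetal liver 2 met it, with highest shares of 15.0 and 2.25%, and the 9 sections without such a spot had at most 0.156% in a passing spot and 0.649% in any in-tissue spot.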

How the results depend on the processing

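With 2 sections per genotype the counts of called genes moved widely. Single acinar genes were not followed through the alternatives of the class comparison, since the spots were chosen by acinar genes. The 317 genes higher and 508 lower in the pancreas-containing spots became 12 and 0 without factors (2011 in either direction at an unadjusted p under 0.05; DESeq2, with its own factors, gave 206 and 14), 192 lower with upper-quartile factors, 640 and 1834 with all in-tissue spots, 655 and 1400 with no replicate block, and 795 and 2111 with wild-type spleen 2 added after seeing the data. The 72 higher and 549 lower genes near the patch became 25 and 14 with DESeq2, 45 and 259 at a 0.5% limit, 43 higher at 2%, 191 lower at 5%, 117 lower with upper-quartile factors, 123 lower without factors and 314 lower with no replicate block. Chosen after seeing the data, tissue-edge spots alone (4 near spots a section) gave 0 and 0 of 8324 genes in edgeR (349 in either direction at an unadjusted p under 0.05), and distant spots of the outer 2 layers gave 64 lower. Between genotypes the 2603 higher and 1283 lower genes became 1197 and 4400 with upper-quartile factors, 1249 and 3464 without factors and 375 lower with DESeq2. The sections' numbers did not pair (correlation of deviations 0.0899), and with the replicate block 3038 were higher and 1930 lower. Without 1 section in turn, higher genes ranged from 151 to 3044 and lower genes from 89 to 2794, both lowest without knockout spleen 2. The 31 acinar genes higher in the knockouts became 17 with DESeq2, 9 with all in-tissue spots, 0 without the pancreas-containing spots and 0 without these and spots within 2 steps, and 14 to 34 without 1 section in turn, lowest without knockout spleen 2.

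The 27 spots of knockout spleen 1 became 12 at 5% and 77 with all in-tissue spots. At 1 step the rule genes, at 36100 and 33860 CPM in knockout spleens 1 and 2, were 19290 and 21700 from sources of 5%, 78440 and 143700 from 20%, and 4841 and 6286 from any spot past the rule. With sources counted only if passing, chosen after seeing the data, knockout spleen 1 was at 31540 at 1 step and 2396 in place of 587 at 5 steps. In single sections, which allow no test, Cldn7 ranged from -2.93 (without knockout spleen 2) to 1.90 and Alas2 from -1.46 (without knockout spleen 1) to 2.97 on the log2 scale. Against the outer 2 layers, Trac was at 0.18, Cd3e at 0.16, Hba-a2 at -0.13, Hbb-bs at -0.18, Hbb-bt at -0.31 and Alas2 at -0.30.

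Between genotypes, without the pancreas-containing spots and then also without spots within 2 steps, the log2 fold changes turned below 0: Cela1 -0.55 and -0.60, Cela2a -0.42 and -0.41, Ctrb1 -0.21 and -0.26, Ctrl -0.50 and -0.55, Cela3b -0.17 and -0.13, Clps -0.42 and -0.40, Zg16 -0.19 and -0.14, Sycn -0.50 and -0.49, Gp2 -0.31 and -0.19, Cel at -0.019 in the first and Reg1 at -0.031 in the second. Of the values for single genes, 685 (73.6%) stayed the same, 14.5% lost their call, 83 moved and 28 turned in direction. The same means that direction and side of the threshold were kept. In single sections of the class and near comparisons, which allow no test, it means a change under 1 SE. There a larger change in the same direction counts as moved. Except where a setting removes spots or sections, the cause was not tested. Depth limits the hormone, duct and regulator genes, which, except Rbpjl, had 0 to 30 UMIs in a class.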
